A study of Mus musculus with 16 samples.

Results

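The 8 genes described here encode subunits of 3 kinds of potassium channel on which ethanol is known to act: the BK channel (Kcnma1, its pore, and Kcnmb4, its β4 accessory subunit), the SK channels (Kcnn1, Kcnn2 and Kcnn3, for SK1, SK2 and SK3) and the GIRK channels (Kcnj3, Kcnj6 and Kcnj9, for GIRK1, GIRK2 and GIRK3). They were chosen by name, with no measured value in the rule but with earlier results of these data known. They are 8 of the 19999 genes in the deposited count table. The table counts RNA in nuclei of the prefrontal cortex from 16 male mice aged 22 weeks, with 1 library per mouse and 4 mice in each of 4 groups. The ctrl group was wild type (WT, the B6129 strain) breathing air, and the alcohol group was WT exposed to chronic intermittent ethanol vapor. The AD group was 3xTg-AD breathing air, and the AD_alcohol group was 3xTg-AD exposed to the vapor. 3xTg-AD mice carry human APP and tau transgenes driven by a Thy1 cassette, and a knockin mutation of presenilin (PS1). They are 1 line, so its alleles cannot be told apart from other differences between the line and the B6129 strain. All mice, air controls included, had received the alcohol dehydrogenase inhibitor pyrazole and had been tested in a water maze, and the tissue was taken after a vapor-free interval.

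As background, BK channels open when depolarization and intracellular calcium coincide, and repolarize the spike; the β4 subunit slows their gating and alters their response to ethanol. SK channels are gated by calcium through calmodulin alone and carry an afterhyperpolarization that limits repetitive firing. GIRK channels are inward rectifiers opened by G protein βγ subunits released by receptors such as GABA-B. Ethanol also opens them directly. Neurons assemble them from GIRK1, GIRK2 and GIRK3, of which GIRK3 is tied to sorting through endosomes.

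Of the 8 genes, 7 encode a pore, lined in potassium channels by a filter with a glycine, tyrosine and glycine at its centre. The reference bases around these codons are printed for 5 genes to show how near the 3 kinds of channel are at the part they share, with the 3 central codons in capitals. They were read 5′ to 3′ from the longest open reading frame of the GENCODE M21 transcripts (GRCm38), on the coding strand.
Kcnma1: tctacagtgGGTTATGGGgacgtttatgca
Kcnn1: ttgtccattGGCTATGGAgacatggtgccg
Kcnj3: gccaccatcGGCTATGGCtaccgctacatc
Kcnj6: accaccatcGGTTATGGCtaccgggtcatc
Kcnj9: accaccatcGGCTATGGGcaccgggtcatc
Over these 30 bases Kcnj6 and Kcnj9 differed at 3, and Kcnj3 from the other GIRK genes at 5 or 6. Kcnn1 differed from the GIRK genes at 13 to 16, and Kcnma1 from the other printed genes at 15 or 16. The GIRK genes were thus nearer to each other than to the BK or SK gene printed. Kcnmb4 has no pore, and Kcnn2 and Kcnn3 are not printed.

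The genes lie on 8 chromosomes (GRCm38, the mm10 build). Kcnma1 spans 725.1 kb at chr14:23289431-24014491 on the minus strand, whereas Kcnj9 spans 8.8 kb at chr1:172320501-172329318, also on the minus strand. Kcnmb4 is at chr10:116417861-116473878 (minus), Kcnn1 at chr8:70842049-70863258 (minus), Kcnn3 at chr3:89520164-89675132 (plus), Kcnj3 at chr2:55435970-55598145 (plus) and Kcnj6 at chr16:94748636-94997701 (minus). A gene of the table overlaps 5 of them on the other strand: 4930519K11Rik for Kcnma1, Kcnmb4os1 and Kcnmb4os2 for Kcnmb4, A330093E20Rik for Kcnn2, Gm41505 for Kcnj6 and Gm36937 for Kcnj9. Whether the counting used strand is not given in the sources used here, and without strand the reads of a gene and of its antisense neighbour cannot be told apart.

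The table held 114512 nuclei and 216742276 UMIs, with 4955 to 9096 nuclei and 9622031 to 17544364 UMIs per mouse and a median of 1543 UMIs per nucleus. Nuclei were clustered without the 8 genes or other potassium channel genes and named by markers; 61394 fell in marker-named classes, 8008 in a Rorb-led class singled out after the data were seen, and 45110 (39.4%) stayed unnamed. The naming rule itself required raised markers, so their levels are no separate check of the names. Of the markers used, Aqp4 was 10.648 times its all-nuclei level in the Astro-like class, and Csf1r 29.47 times in the Micro-PVM-like class. Some neuronal classes were less distinct. In the L5 IT-like cluster the markers averaged a log2 difference of 0.246 from other glutamatergic nuclei. In the non-neuronal classes, which should lack them, 5 glutamatergic markers stood at 0.468 to 0.898 of their all-nuclei level. Whether this came from free neuronal RNA, doublets or neuronal nuclei placed in these classes was not tested. In ctrl mice 26 and 27 and AD mouse 12, the rRNA-associated Gm42418 was at 17914 CPM (UMIs of a gene per 1000000 UMIs) or more, against at most 4249 in the other 13. Barcodes were shared between libraries in 1694 cases (3400 nuclei), and scrublet marked 7814 nuclei (6.82%) as doublets, which were kept in the main values. Levels are given as mean CPM ± SD over mice with at least 10 nuclei of the class (n = 16 unless stated). A lower level over a sum of several classes may mean fewer nuclei of a class or less RNA of the gene per nucleus, which that sum alone cannot tell apart.

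SK channel transcripts differed between cell classes. Kcnn2, for the SK2 subunit, was high in 3 classes: 525 ± 72.5 CPM in Lamp5-like interneurons (lowest 402, median 519.9, highest 693), 515 ± 87.2 in Sncg-like interneurons (lowest 363, median 507, highest 746) and 413 ± 37.9 in L5 ET-like neurons (lowest 366, median 405, highest 495), the extratelencephalic output cells of layer 5. Lamp5-like and Sncg-like interneurons did not differ beyond their spread over mice (adjusted p = 0.81, two-sided exact sign-flip permutation test), while Sncg-like interneurons were above L5 ET-like neurons in 15 of 16 mice (adjusted p = 0.0028, same exact test). L5 ET-like neurons were in turn above the next class, Vip-like interneurons at 209 ± 58.9 CPM, in 16 of 16 mice (adjusted p = 0.0023, same exact test). The remaining interneurons were far lower, with 90.7 ± 16.4 CPM in Pvalb-like and 36.4 ± 21.5 in Sst-like interneurons, so that the interneuron classes lay at both ends of the range for Kcnn2. Among glutamatergic classes, L6 CT-like neurons held 141 ± 19.3 CPM, above Pvalb-like interneurons in 16 of 16 mice (adjusted p = 0.0023, same exact test), and L5 IT-like neurons 82.2 ± 11.6. The L2/3 IT-like and Rorb-led classes held 51.8 ± 7.16 and 42.3 ± 8.98 CPM.

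Outside neurons, Kcnn2 reached 183 ± 43.9 CPM in Astro-like nuclei (lowest 107, median 168, highest 254), which is 1.72 times its all-nuclei level and above the range of 0.468 to 0.892 in which the glutamatergic markers stood there. Micro-PVM-like nuclei held 42.8 ± 15.4 CPM, 0.41 of the all-nuclei level, below those markers' range in that class. The share of nuclei with a Kcnn2 UMI followed the same order: after thinning each nucleus of at least 1000 UMIs to 1000 it was 40.6% in Lamp5-like, 33.5% in L5 ET-like, 17% in Astro-like and 6.22% in Micro-PVM-like nuclei (57.3%, 70.4%, 21.8% and 3.44% unthinned, at median depths of 1679, 3293, 1205 and 788 UMIs). Nuclei under 1000 UMIs were left out of the thinned share. In Micro-PVM-like nuclei, whose median depth lay under that limit, it therefore describes the deeper nuclei only. The thinned share put Lamp5-like above L5 ET-like nuclei and the unthinned share, which rises with depth, the reverse.

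Kcnn3, the SK3 subunit, was highest in Astro-like nuclei at 42 ± 6.48 CPM (lowest 27.6, median 42.4, highest 53.7), 3.09 times its all-nuclei level. L6b-like neurons held 32.2 ± 19.3 CPM (n = 13), L6 IT-like neurons 21.3 ± 10.2 and L2/3 IT-like neurons 17.3 ± 5.7. At the other end, Pvalb-like interneurons held 7 Kcnn3 UMIs in 2542 nuclei, with none in 12 of 16 mice and a mean of 1.05 ± 2.04 CPM. None of the 19 neighbouring pairs in the Kcnn3 order passed the test. Kcnn1, the SK1 subunit, was scarce: 1144 UMIs over all nuclei of 16 mice gave 5.31 ± 0.917 CPM, and no class differed from its neighbour. Its GABAergic sum rested on 57 UMIs.

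**Figure D1:**
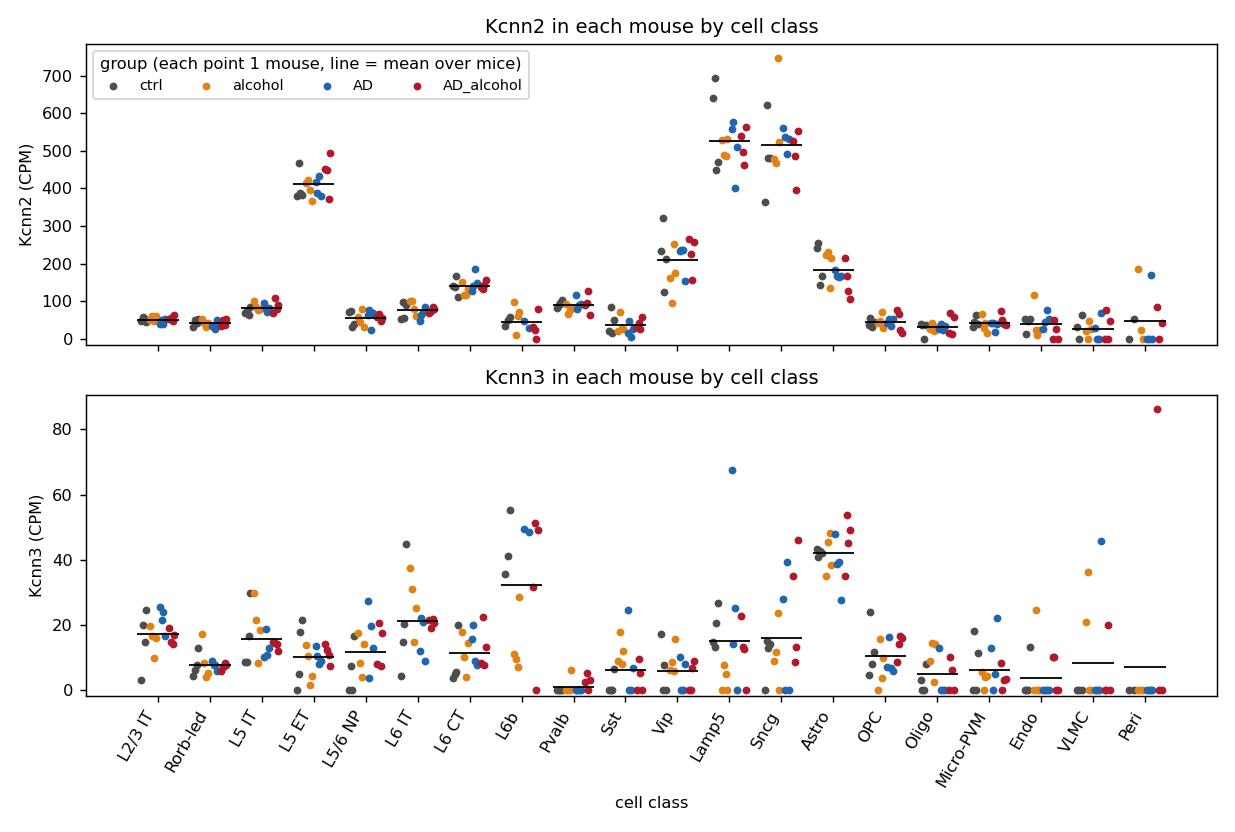
Kcnn2 (top) and Kcnn3 (bottom) in CPM (y axis) by cell class (x axis), each point 1 mouse coloured by group and each line the mean over mice. Kcnn2 sits highest in the Lamp5, Sncg and L5 ET classes, with means of 525, 515 and 413 CPM, and Kcnn3 in the Astro class, at 42 CPM; points of the 4 groups overlap within classes.

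Kcnma1, the BK pore gene, was measured in every class. It was highest in L6 CT-like neurons at 531 ± 57 CPM (lowest 450.1, median 516, highest 651), followed by L6b-like (526 ± 138, n = 13), L5 IT-like (441 ± 41.9) and Rorb-led neurons (431 ± 47.1). Pvalb-like interneurons held 401 ± 48.7 CPM (lowest 320.4, median 404, highest 466), the most of any interneuron class, and Sncg-like interneurons 144 ± 49.2, the least of all 20 classes described. By these means Kcnma1 and Kcnn2 ran in opposite directions among interneurons, Pvalb-like above Lamp5-like and Sncg-like for the first and below them for the second. Of 19 neighbouring pairs in the Kcnma1 order, 1 passed the test, L5/6 NP-like (341 ± 50.5 CPM) above Sst-like (265 ± 39.4) in 15 of 16 mice (adjusted p = 0.0028, exact sign-flip test). In non-neuronal classes Kcnma1 lay between 151 ± 75 CPM (VLMC-like, n = 15) and 229 ± 49.6 (Micro-PVM-like), relative to all nuclei never above the highest of the glutamatergic markers there.

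Kcnmb4, for the β4 subunit, peaked in L5/6 NP-like neurons at 123 ± 27.3 CPM (lowest 55, median 129, highest 155) and L6b-like neurons at 114 ± 43.6 (n = 13). Peri-like nuclei came next by the mean at 82.6 ± 78.2 (n = 12), which rests on 18 Kcnmb4 UMIs, and then L6 CT-like neurons at 74 ± 14.6. Kcnmb4 was low in L2/3 IT-like neurons (47.7 ± 10.2), in Pvalb-like interneurons (29.2 ± 11.6), where Kcnma1 was high, and in Sncg-like interneurons (23.8 ± 19.2). In 5 non-neuronal classes (OPC, Oligo, Endo, VLMC and Peri) Kcnmb4 stood, relative to all nuclei, above every one of the glutamatergic markers, at levels such as 65.8 ± 20.7 CPM in OPC-like and 64.4 ± 18.5 in Oligo-like nuclei. Kcnmb4 averaged 60.2 CPM in the glutamatergic and 41.5 in the GABAergic sum, both below its mean over all nuclei. Glutamatergic markers are therefore no yardstick for free RNA of this gene. Whether these levels were RNA of the non-neuronal classes was not tested. No neighbouring pair of the Kcnmb4 order passed the test. Over 20 classes the levels of Kcnma1 and Kcnmb4 correlated at r = 0.43 (Pearson, log2(CPM + 1)). This and the other correlations over classes are descriptions, since the classes share mice and libraries, and possibly free RNA.

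Of the GIRK genes, Kcnj9 and Kcnj6 had their highest mean in L2/3 IT-like neurons. Kcnj9, for GIRK3, was highest in L2/3 IT-like neurons at 229 ± 34.8 CPM (lowest 188, median 220.4, highest 291), the Rorb-led class at 222 ± 37.6 and L6 IT-like neurons at 216 ± 42.9. These 3 classes did not differ from their neighbours beyond the spread over mice (adjusted p = 0.56 and 0.64, exact sign-flip test). Pvalb-like interneurons held 169 ± 40.8 CPM, below L5/6 NP-like neurons (196 ± 41.5) in 13 of 16 mice (adjusted p = 0.036, exact sign-flip test), and Sst-like interneurons 72.8 ± 33.4. Kcnj6, for GIRK2, was highest in L2/3 IT-like neurons at 139 ± 15.3 CPM (lowest 116, median 139, highest 162), above L6 CT-like neurons (109.6 ± 18.8) in 15 of 16 mice (adjusted p = 0.0028, exact sign-flip test). It was low in L5/6 NP-like neurons (48.9 ± 12.3), Sst-like interneurons (26 ± 14.4) and Astro-like nuclei (21 ± 6.87). Sncg-like interneurons (93 ± 27.2 CPM) exceeded Pvalb-like (57.6 ± 15.2) in 13 of 16 mice (adjusted p = 0.036, exact sign-flip test). L5/6 NP-like neurons thus paired a high Kcnj9 level with a low Kcnj6 level for each gene's own range.

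Kcnj3, for GIRK1, was highest in 2 interneuron classes, Sncg-like at 123 ± 52.5 CPM and Pvalb-like at 121 ± 15.6 (lowest 84, median 125, highest 135), and lowest in another, Sst-like at 38.8 ± 14.3 (lowest 20.3, median 34.7, highest 69.1). L5/6 NP-like neurons held 112 ± 32 CPM and L5 IT-like neurons 66.9 ± 10.4. No neighbouring pair of the Kcnj3 order passed the test. All 3 GIRK genes were low in Sst-like interneurons. Over 20 classes, Kcnj6 and Kcnj9 correlated at r = 0.75, Kcnj3 with Kcnj6 at r = 0.58 and Kcnj3 with Kcnj9 at r = 0.45. Across the channel families, Kcnma1 correlated with Kcnj9 at r = 0.70 and with Kcnj6 at r = 0.69, and Kcnmb4 with Kcnn2 at r = -0.53. In all, 7 of the 152 neighbouring pairs over the 8 genes passed the test.

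**Figure D2:**
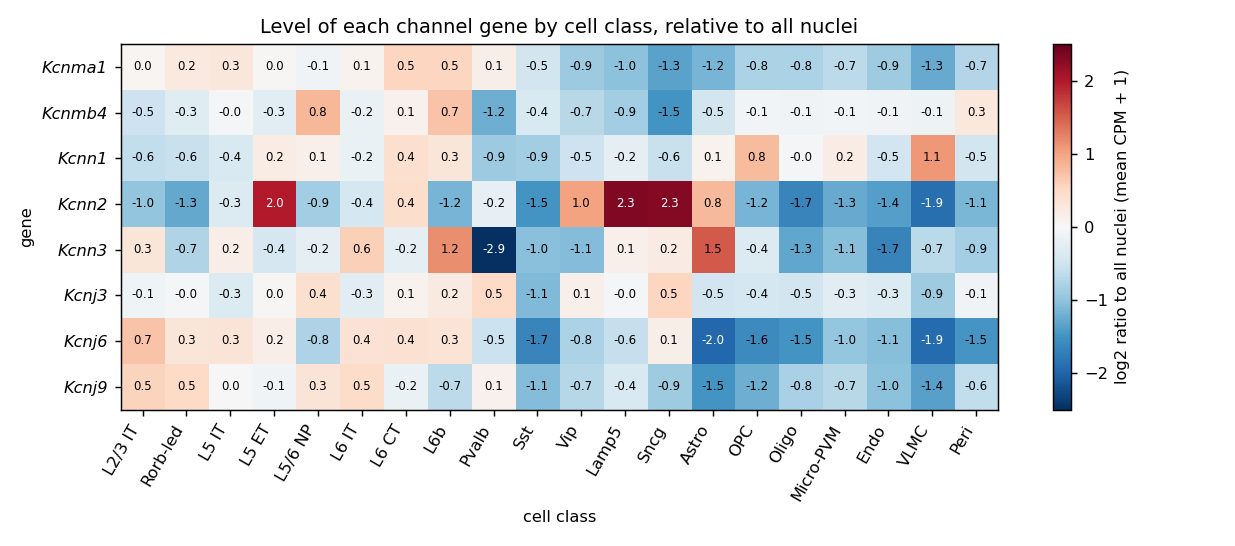
Heat map of the 8 channel genes (y axis) over the cell classes (x axis), coloured by the log2 ratio of the mean CPM + 1 in the class to that over all nuclei. Kcnn2 stands out in the Lamp5, Sncg and L5 ET classes, Kcnn3 in the Astro class and Kcnmb4 in the L5/6 NP and L6b classes, while Kcnj6 and Kcnj9 are above the all-nuclei level in most intratelencephalic classes.

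The glutamatergic and GABAergic sums of the same mouse were then set against each other on log2(CPM + 1), with a two-sided exact sign-flip permutation test over 16 mice whose smallest p is 3.1e-05, adjusted over 13563 genes. Most genes differed at this precision: 69.5% of them passed, and 30.3% had all 16 mice on one side, so passing alone sets no member apart. The glutamatergic sum was higher in 16 of 16 mice for Kcnma1 (416 against 289 CPM, difference 0.53), Kcnmb4 (60.2 against 41.5, 0.57), Kcnn3 (14.5 against 6.32, 1.09), Kcnj6 (114 against 52.3, 1.13) and Kcnj9 (191 against 122, 0.66). Kcnn2 went the other way in 16 of 16 mice (115 against 174 CPM, difference -0.59). The Kcnn3 difference was 0.50 when the thinned share of nuclei with a UMI was compared in place of the level. For these 6 genes the exact test gave 0.0001 as the adjusted p. Kcnj3 was slightly higher in the GABAergic sum in 13 of 16 mice (80.7 against 90.8 CPM, difference -0.17, adjusted p = 0.0023, exact test), a call that did not hold on the thinned share of nuclei with a UMI. Kcnn1 was higher in the glutamatergic sum in 11 of 16 mice (4.39 against 3.14 CPM, difference 0.47, adjusted p = 0.0073, exact test) and did not pass with classes drawn from marker counts. The broad sums hide the classes within them, since Kcnn2 was both high and low in interneurons.

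For each gene the genes with the most similar level over 20 classes were found among 11875 genes reaching 20 CPM. For Kcnn2 the first was its antisense neighbour A330093E20Rik (r = 0.98), followed by Mns1 (0.75) and Dab1 (0.74). For Kcnj6 it was likewise the antisense neighbour Gm41505 (0.96), then Zfyve28 (0.94) and Csnk1g1 (0.89). The class pattern of these 2 genes was therefore closest to that of a transcript in the same place. Kcnj9 was nearest to Faah (0.89), the enzyme that degrades the endocannabinoid anandamide, 8030462N17Rik (0.87) and Dmtn (0.86). Kcnma1 was nearest to Trpv6 (0.90), a calcium channel, Ephb6 (0.88) and Slf1 (0.87), and Kcnmb4 to P4ha1 (0.87) and 2900026A02Rik (0.84). Kcnj3 was nearest to Elmod1 (0.76), Srrm4 (0.76), a neuronal splicing regulator, and Gzf1 (0.74), and Kcnn3 to 2900076A07Rik (0.77), Gm32618 (0.77) and Bcat2 (0.76). None of the 8 genes was among the 3 nearest of another, and Kcnn1 was below the level minimum.

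The study asked how a history of alcohol vapor and the 3xTg-AD genotype act alone and together, and 8 comparisons of the 4 groups were made with edgeR's quasi-likelihood test on counts summed per mouse and class. These comparisons share mice: 6 of the 8 use the ctrl group, and those averaged over a factor and the interaction use all 16. A gene was tested where its counts passed the filter on low values, which for 18 classes was the case in all 18 for Kcnma1, 15 for Kcnj3 and Kcnj9, 13 for Kcnn2, 12 for Kcnmb4, 10 for Kcnj6, 7 for Kcnn3 and none for Kcnn1, giving 90 tests per comparison. Adjusted p-values are over all genes tested in the class, and 0.05 is the threshold throughout. Shares of all tests are given for edgeR only, so counts of DESeq2 calls cannot be set against that tool's own background.

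For alcohol vapor in WT mice (alcohol minus ctrl), 0 of 90 tests passed by edgeR and 0 by DESeq2, against 0.0305% of all gene and class tests by edgeR, and 2 had an unadjusted p under 0.05 (9.0% of all tests). For alcohol vapor in 3xTg-AD mice (AD_alcohol minus AD) the counts were 0 by either tool (0.201% of all tests) and 4 unadjusted (8.44%). For vapor averaged over genotypes they were 0 by either tool (0.714%) and 4 unadjusted (13.1%). The share of the channel tests was below the background in each of these comparisons. For the interaction, 0 passed by either tool (0.00247%) and 1 unadjusted (4.23%).

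Between 3xTg-AD and WT mice, 4.44 to 11.1% of channel tests had an unadjusted p under 0.05 by edgeR, where 6.47 to 12.5% of all tests did. These channel tests were all lower in 3xTg-AD mice, and most were of 1 gene, Kcnj9, in several classes of the same mice. For genotype without alcohol (AD minus ctrl), 0 passed by either tool (0.18% of all tests by edgeR) and 8 of 90 were under 0.05 unadjusted (6.47%), all of them lower (8.89% of the channel tests, where 3.44% of all tests were lower). These were Kcnj9 in 4 classes, Kcnj3 in 3 and Kcnma1 in 1, with Oligo-like nuclei among those of Kcnj9 (-0.79) and Kcnj3 (-0.784). Relative to all nuclei, neither gene stood above the highest of the glutamatergic markers in Oligo-like nuclei (0.753). For genotype under alcohol (AD_alcohol minus alcohol), 0 passed by either tool (0.376%) and 4 were under 0.05 unadjusted (8.56%), all lower (4.44% of the channel tests, at the 4.37% of all tests), 3 for Kcnj9 and 1 for Kcnj3. For genotype averaged over alcohol, 0 passed by either tool (0.973%) and 10 were under 0.05 unadjusted (10.2%), all lower (11.1% of the channel tests and 5.25% of all), with Kcnj9 in 6 classes, Kcnj3 in 3 and Kcnmb4 in 1. Among them were Kcnj9 in Oligo-like (-0.535), Kcnj3 in Astro-like (-0.306) and Kcnmb4 in Micro-PVM-like nuclei (-0.524). Relative to all nuclei, each was not above the highest of the glutamatergic markers in that class. AD_alcohol against ctrl was the comparison with a call, 1 of 90 by edgeR (1.1% of all tests), with 10 under 0.05 unadjusted (12.5%), all lower (11.1% of the channel tests and 6.72% of all). Of these 8 were Kcnj9, and the others were Kcnj6 (-1.28, SE 0.43, adjusted p = 0.139) and Kcnmb4 (-0.91, SE 0.31, adjusted p = 0.153) in Micro-PVM-like nuclei by edgeR. Relative to all nuclei, neither Kcnj6 nor Kcnmb4 stood above the glutamatergic markers there, which ran from 0.674 to 0.898. The call was Kcnj9 in Pvalb-like interneurons by edgeR, while the 1 call of DESeq2 was Kcnj9 in L2/3 IT-like neurons (-0.32, SE 0.10, adjusted p = 0.0455). Classes share mice, so counts over classes are not independent.

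Kcnj9 was lower in GABAergic nuclei of 3xTg-AD mice, with the lowest group mean where both factors met. Its GABAergic CPM was 140.4, 142, 166 and 169 (154 ± 15, SD, n = 4) in ctrl mice and 90.9, 109.6, 78.5 and 94.9 (93.5 ± 12.8, SD, n = 4) in AD_alcohol mice. It was 159.8, 120.1, 126 and 99.3 (126 ± 25.1, SD, n = 4) in alcohol mice and 112, 109, 135 and 99 (114 ± 15.3, SD, n = 4) in AD mice. Every AD_alcohol and every AD mouse was below every ctrl mouse, whereas the alcohol group overlapped both ctrl and AD. The AD_alcohol values overlapped those of the AD and the alcohol mice. AD_alcohol minus ctrl was -0.77 (SE 0.14, adjusted p = 0.00131) on the log2 scale by edgeR, where 1.96% of genes tested in the GABAergic sum passed, and kept its call without each mouse in turn and in the 7 alternative settings that changed its data or fit, since the stricter filter on nuclei removed no GABAergic nucleus. Genotype averaged over alcohol was -0.46 (SE 0.10, adjusted p = 0.00692) by edgeR, where 1.68% passed, a call lost with classes from marker counts (-0.37, adjusted p = 0.0877, edgeR).

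The single-factor differences of Kcnj9 in the GABAergic sum did not pass the test. Genotype without alcohol gave -0.48 (SE 0.14, adjusted p = 0.187) and genotype under alcohol -0.43 (SE 0.14, adjusted p = 0.182) by edgeR. Alcohol vapor gave -0.34 (SE 0.13, adjusted p = 0.377) in WT and -0.28 (SE 0.14, adjusted p = 0.509) in 3xTg-AD mice, and -0.31 (SE 0.10, adjusted p = 0.0912) averaged over genotypes by edgeR. All 5 values were negative. The interaction was 0.05 (SE 0.20, adjusted p = 0.997) by edgeR, with a 95% interval of -0.34 to 0.45. Differences between the vapor effects of the genotypes within this interval are compatible with the data. The interval is unadjusted and is no limit of detection.

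**Figure D3:**
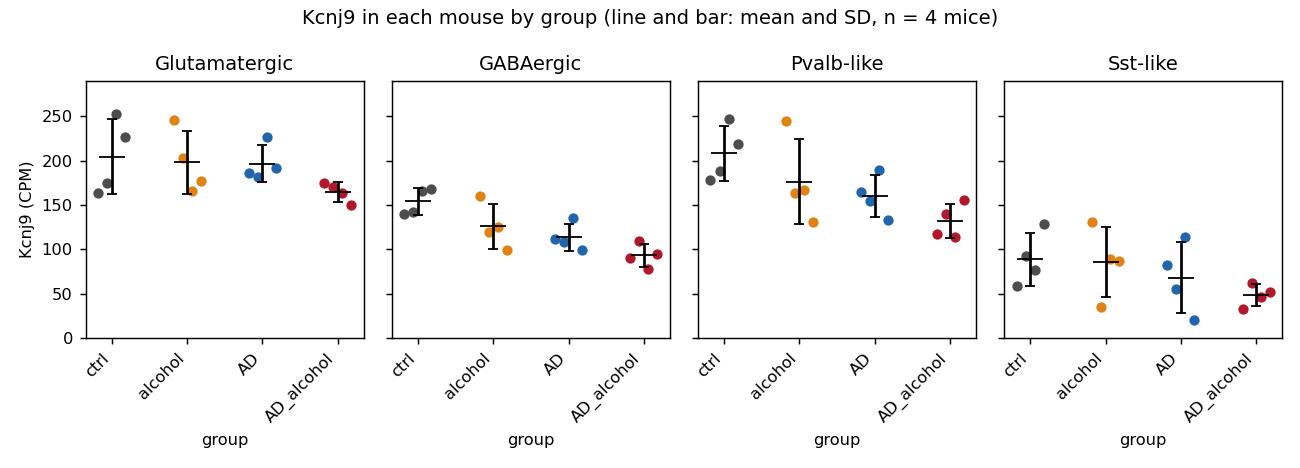
Kcnj9 in CPM (y axis) in each mouse by group (x axis) for the glutamatergic and GABAergic sums and the Pvalb-like and Sst-like classes, with line and bar for the mean and SD of 4 mice. In the GABAergic sum the AD_alcohol mice average 93.5 CPM and the ctrl mice 154, without overlap; in the glutamatergic sum the averages are 165 and 205 CPM and the groups overlap.

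Pvalb-like interneurons, the largest GABAergic class, showed the same order of groups. Kcnj9 there was 179, 188, 247 and 219 (208 ± 31.1, SD, n = 4) CPM in ctrl and 118, 139.8, 114 and 156 (132 ± 19.5, SD, n = 4) in AD_alcohol mice, without overlap. It was 245, 164, 167 and 131 (176 ± 48.3, SD, n = 4) in alcohol and 164, 154, 190.0 and 133 (160.4 ± 23.8, SD, n = 4) in AD mice, which overlapped both. AD_alcohol minus ctrl was -0.70 (SE 0.18, adjusted p = 0.0294) by edgeR, where 1.16% of genes tested in this class passed. The call was lost with DESeq2 (-0.71, adjusted p = 0.0704), with Gm42418 as a covariate (-0.75, adjusted p = 0.075 by edgeR), with classes from marker counts (-0.50, adjusted p = 0.629 by edgeR), and without ctrl mouse 28 or 36 or AD_alcohol mouse 4, 31 or 33 (edgeR adjusted p = 0.0988, 0.0522, 0.0945, 0.0682 and 0.119). In Sst-like and Lamp5-like interneurons the same difference was -0.94 (SE 0.34, adjusted p = 0.22) and -0.81 (SE 0.31, adjusted p = 0.289) by edgeR, and in Vip-like interneurons -0.35 (SE 0.32, adjusted p = 0.823), none of them past the threshold.

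In the glutamatergic sum the Kcnj9 difference missed the threshold. Its level was 164, 175, 253 and 227 (205 ± 42.3, SD, n = 4) CPM in ctrl, 246, 203, 166 and 178 (198 ± 35.2, SD, n = 4) in alcohol, 187, 182, 227 and 192 (197 ± 20.4, SD, n = 4) in AD and 175, 171, 164 and 149.8 (165 ± 11, SD, n = 4) in AD_alcohol mice. The ctrl group was split, with mice 26 and 27 (the libraries high in Gm42418) at the level of the AD_alcohol mice and mice 28 and 36 above them. AD_alcohol minus ctrl was -0.30 (SE 0.10, adjusted p = 0.109) by edgeR. Over the 15 classes tested, the Kcnj9 difference was negative in 15 for AD_alcohol minus ctrl, in 15 for vapor averaged over genotypes, in 14 for genotype averaged over alcohol and in 13 for each of the 4 single-factor comparisons. The medians of the first 3 were -0.35, -0.19 and -0.16. These classes share mice, and the medians over all genes of a class ran from -0.02 to 0.02 in these 3 comparisons. The classes tested include Astro-like, OPC-like, Oligo-like and Micro-PVM-like nuclei. Kcnj9 there was, relative to all nuclei, not above the highest of the glutamatergic markers. Over all nuclei AD_alcohol minus ctrl was -0.33 (SE 0.11, adjusted p = 0.099) by edgeR and -0.33 (SE 0.11, adjusted p = 0.0434) by DESeq2. It passed by edgeR with Gm42418 as a covariate (-0.47, adjusted p = 0.0433), without the 3 mice high in Gm42418 (-0.49, adjusted p = 0.0288) and without ctrl mouse 27 (-0.41, adjusted p = 0.0473). The smaller difference in the glutamatergic sum was not tested against that in the GABAergic sum.

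The GABAergic sum holds 9221 nuclei, of which 2452 (26.6%) are in unnamed clusters. For 2129 of those, striatal projection markers gave the best score, but that score was at most 0.276 with at most 2 markers raised. No striatal marker was among the 10 leading genes of these clusters, which included Cort, Crh, Th and Vipr2 in separate clusters. The score thus names no cell type for them. All unnamed clusters were then left out, a choice made after the data were seen. Kcnj9 in GABAergic nuclei was then 153 ± 17.5 CPM in ctrl and 93.2 ± 11.9 in AD_alcohol mice (SD, n = 4), without overlap. The highest AD mouse (135.6) then reached the lowest ctrl mouse (135.5). AD_alcohol minus ctrl was -0.77 (SE 0.15, adjusted p = 0.00282) and genotype averaged over alcohol -0.46 (SE 0.11, adjusted p = 0.0139), both by edgeR. The unnamed share ran from 20.7 to 34.8% in ctrl, 25.1 to 28.8% in alcohol, 21.2 to 32.8% in AD and 24.7 to 29.7% in AD_alcohol mice.

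Glutamatergic RNA and the mix of interneurons were also measured. The summed glutamatergic markers in the GABAergic sum ran from 455 to 791 CPM in ctrl, 502 to 683 in alcohol, 589 to 739 in AD and 524 to 675 in AD_alcohol mice, all overlapping. In Pvalb-like interneurons they ran from 283 to 745 CPM in ctrl and from 441 to 606 in AD_alcohol mice. Pvalb-like nuclei made up 27.2 to 34% of GABAergic nuclei in ctrl, 22.6 to 29.7% in alcohol, 25.3 to 28.6% in AD and 22.9 to 30.9% in AD_alcohol mice, with overlapping ranges. In the same order of groups, Sncg-like nuclei averaged 5.9, 5.4, 7.35 and 7.13% and Lamp5-like nuclei 10.5, 11.7, 7.71 and 10.9%, also with overlapping ranges. Group means ran from 12.9 to 13.2% for Sst-like and 15.1 to 17.2% for Vip-like nuclei. Whether these shares bear on the Kcnj9 level was not tested. Without the 3 mice high in Gm42418 the GABAergic difference of AD_alcohol from ctrl was -0.79 (adjusted p = 0.00295, edgeR) and that of genotype averaged over alcohol -0.48 (adjusted p = 0.00777, edgeR).

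Kcnj3, the other GIRK gene with values low in 3xTg-AD mice, missed the threshold by edgeR. Over all nuclei it was 90.2, 84.2, 92.4 and 101 (92 ± 7.02, SD, n = 4) CPM in ctrl and 99, 94.4, 86 and 78.7 (89.5 ± 8.99, SD, n = 4) in alcohol mice. It was 67.4, 79.6, 90.4 and 83 (80.1 ± 9.58, SD, n = 4) in AD and 78.2, 89.2, 68.9 and 70.8 (76.8 ± 9.19, SD, n = 4) in AD_alcohol mice. The 2 WT groups were mostly above the 2 3xTg-AD groups, with overlap. Genotype averaged over alcohol was -0.21 (SE 0.06, adjusted p = 0.0743) by edgeR and -0.21 (SE 0.06, adjusted p = 0.0191) by DESeq2. For AD_alcohol minus ctrl DESeq2 also called it over all nuclei (-0.28, SE 0.09, adjusted p = 0.0221), where edgeR gave -0.29 (SE 0.09, adjusted p = 0.0788). In L2/3 IT-like neurons genotype averaged over alcohol was -0.27 (SE 0.09, adjusted p = 0.129) by edgeR and -0.33 (adjusted p = 0.0439, edgeR) with Gm42418 as a covariate, but -0.15 (adjusted p = 0.78, edgeR) with classes from marker counts. Averaged over genotypes, vapor gave -0.07 (SE 0.06, adjusted p = 0.552) by edgeR over all nuclei.

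Kcnj6, the GIRK2 gene, had no call in any comparison by edgeR with all 16 mice and no covariate or by DESeq2, and in the ctrl group its values were split between the libraries high in Gm42418 and the others. In the GABAergic sum it was 70.2, 65.2, 40.1 and 32.5 (52 ± 18.5, SD, n = 4) CPM in ctrl mice, with the 2 high values in mice 26 and 27, and 51.9, 49.4, 56.3 and 57.4 (53.7 ± 3.72, SD, n = 4) in AD_alcohol mice. It was 51, 43, 61.9 and 53.8 (52.4 ± 7.8, SD, n = 4) in alcohol and 61.2, 43.2, 44.2 and 55.8 (51.1 ± 8.84, SD, n = 4) in AD mice, where the highest value was that of mouse 12. The groups overlapped, and AD_alcohol minus ctrl was 0.02 (SE 0.21, adjusted p = 0.982) by edgeR with a 95% interval of -0.42 to 0.45. With Gm42418 as a covariate the same difference was 0.78 (SE 0.21, adjusted p = 0.0305, edgeR), and in the glutamatergic sum it was 0.50 (adjusted p = 0.0277, edgeR) against 0.07 without it. Vapor averaged over genotypes likewise passed for the GABAergic sum with the covariate (0.56, SE 0.15, adjusted p = 0.0257, edgeR). Gm42418 was at 2059 to 3232 CPM in AD_alcohol mice, below every AD mouse (3477 or more) and every ctrl mouse (3807 or more). A fit with it as a covariate therefore cannot cleanly separate it from these group differences. The calls of Kcnj6 in these sums were made with the covariate alone, among the alternatives run. In single classes it was called for AD_alcohol minus ctrl in L2/3 IT-like neurons with the covariate (0.61, adjusted p = 0.0198) and in Micro-PVM-like nuclei without ctrl mouse 36 (-1.70, adjusted p = 0.0159), both by edgeR. In Micro-PVM-like nuclei Kcnj6 was, relative to all nuclei, not above the highest of the glutamatergic markers.

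The BK genes had no call by edgeR or DESeq2 in any comparison without the covariate described last. Kcnma1 over all nuclei was 326, 338, 405 and 399 (367 ± 40.9, SD, n = 4) CPM in ctrl, 399, 405, 355 and 337 (374 ± 33.2, SD, n = 4) in alcohol, 358, 342, 349 and 363 (353 ± 9.13, SD, n = 4) in AD and 344, 397, 299 and 397 (359 ± 47.1, SD, n = 4) in AD_alcohol mice, with all groups overlapping. Vapor averaged over genotypes was 0.01 (95% interval -0.14 to 0.15, adjusted p = 0.979) and genotype averaged over alcohol -0.06 (95% interval -0.20 to 0.09, adjusted p = 0.762) by edgeR. Kcnmb4 over all nuclei was 49.7, 55.9, 80.5 and 85.1 (67.8 ± 17.6, SD, n = 4) CPM in ctrl and 85.3, 70.7, 67.9 and 70.1 (73.5 ± 7.96, SD, n = 4) in alcohol mice. It was 54.6, 78.9, 81.1 and 73.2 (71.9 ± 12, SD, n = 4) in AD and 73, 61.2, 64 and 52.9 (62.8 ± 8.28, SD, n = 4) in AD_alcohol mice. Ctrl mice 26 and 27 and AD mouse 12, the libraries high in Gm42418, were the lowest of their groups. Vapor averaged over genotypes was -0.05 (SE 0.09, adjusted p = 0.804) by edgeR. With Gm42418 as a covariate Kcnmb4 was lower under vapor in 3xTg-AD mice over all nuclei (-0.36, adjusted p = 0.0485, against -0.18 without it), in the glutamatergic sum (-0.42, adjusted p = 0.0219, against -0.24) and in L2/3 IT-like neurons (-0.49, adjusted p = 0.0366, against -0.32), all by edgeR. Averaged over genotypes, vapor with the covariate gave -0.30 (adjusted p = 0.0386, against -0.11) in the glutamatergic sum and -0.38 (adjusted p = 0.0452, against -0.17) in L2/3 IT-like neurons by edgeR. AD_alcohol minus ctrl over all nuclei was -0.42 (adjusted p = 0.0477, edgeR) with it and -0.11 without it. None of these Kcnmb4 differences passed without the covariate. As for Kcnj6, the covariate cannot be cleanly separated from the groups, since Gm42418 was lower in every AD_alcohol mouse than in every AD and ctrl mouse.

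The SK genes likewise had no call. Kcnn2 in the GABAergic sum was 193, 238, 155 and 142 (182 ± 43.2, SD, n = 4) CPM in ctrl and 167, 179, 184 and 157 (171 ± 12.1, SD, n = 4) in alcohol mice. It was 172, 191, 151 and 159 (168 ± 17.5, SD, n = 4) in AD and 186, 184, 177 and 158 (176 ± 12.7, SD, n = 4) in AD_alcohol mice, and the ctrl mice spanned the other groups. Vapor averaged over genotypes was -0.03 (95% interval -0.24 to 0.18, adjusted p = 0.924) in the GABAergic and 0.08 (95% interval -0.12 to 0.27, adjusted p = 0.68) in the glutamatergic sum by edgeR. In Astro-like nuclei genotype averaged over alcohol was -0.32 (SE 0.15, adjusted p = 0.505) by edgeR for Kcnn2 and -0.01 (SE 0.16, adjusted p = 0.988) for Kcnn3. Kcnn3 over all nuclei ranged from 6.36 to 21.1 CPM within the ctrl group alone, and its vapor difference was -0.01 (SE 0.17, adjusted p = 0.983) by edgeR. Kcnn1, tested in the all-nuclei and glutamatergic sums, was 5.78, 5.51, 6.33 and 7.05 CPM in ctrl and 4.65, 5.0, 4.17 and 5.23 in AD_alcohol mice, which did not overlap. The difference was -0.40 (SE 0.16, adjusted p = 0.165), and genotype averaged over alcohol gave -0.30 (SE 0.11, adjusted p = 0.179) by edgeR.

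**Figure D4:**
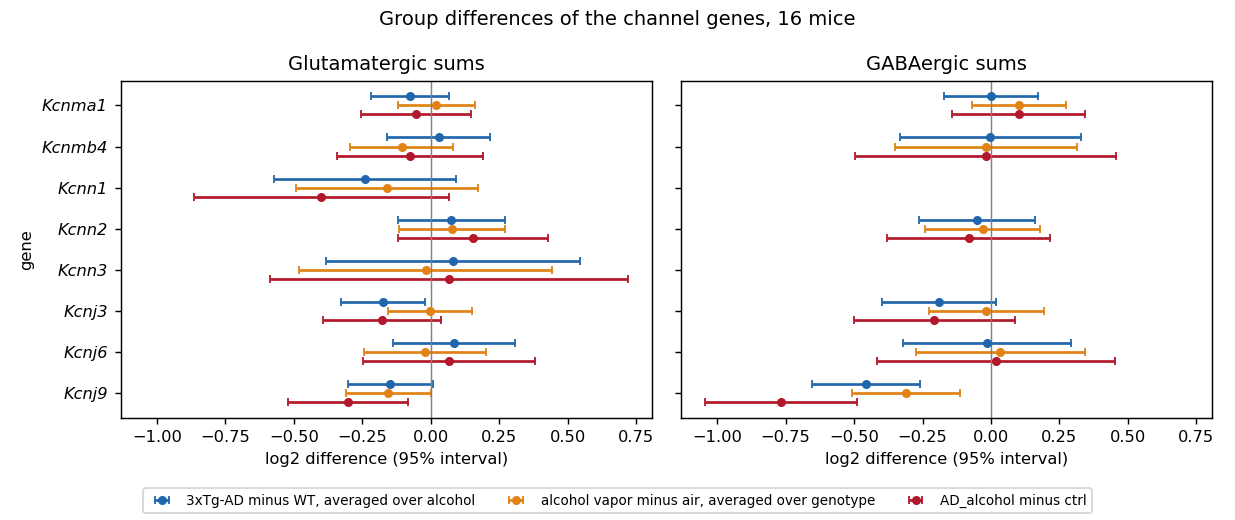
Log2 differences (x axis) with 95% intervals for the channel genes (y axis) in the glutamatergic and GABAergic sums of 16 mice, coloured by comparison (genotype averaged over alcohol, vapor averaged over genotype, AD_alcohol minus ctrl). Most intervals cross 0. The 3 of Kcnj9 in the GABAergic sum lie below 0, and so do those of Kcnj9 in the glutamatergic sum for AD_alcohol minus ctrl (-0.52 to -0.08) and of Kcnj3 there for genotype averaged over alcohol (-0.33 to -0.02), neither of which passed the adjusted threshold; the GABAergic Kcnj9 values were -0.77 for AD_alcohol minus ctrl and -0.46 for genotype averaged over alcohol.

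Among genes that act with these channels there was 1 call. A list of 37 partners, made of other BK and GIRK subunits, calmodulins, casein kinase 2 and phosphatase subunits that act on SK channels, GABA-B receptors, G protein subunits and RGS proteins, had 30 genes and 410 tests past the filter. By edgeR 1 of its tests passed over the 8 comparisons, Csnk2a2, a catalytic subunit of casein kinase 2, in OPC-like nuclei for genotype under alcohol (-1.14, SE 0.25, adjusted p = 0.0112). That is 0.244% of the list's tests in this comparison, where 0.185% of all tests were called lower and 0.376% in either direction. Its level there was 164 ± 33.7 CPM in alcohol mice and 72.2 ± 11.7 in AD_alcohol mice (SD, n = 4), but also 84.2 ± 41.3 in ctrl and 76.9 ± 23 in AD mice. By its mean the alcohol group stood above the other 3, but its difference from ctrl was not called. The other 7 comparisons had 0 calls by edgeR, with 17 to 28 of 410 tests under 0.05 unadjusted (4.23 to 13.1% of all tests), and DESeq2 made 0 calls in all 8. The list's median difference lay between -0.10 and 0.09 in the 8 comparisons, where the medians of all genes in a class ran from -0.02 to 0.03.

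By edgeR, calls among other potassium channel genes were all in the lower direction. In a list of 46 voltage-gated and other calcium- or sodium-activated channel genes (43 tested, 420 tests), edgeR called 7 lower for genotype averaged over alcohol. This is 1.667% of the list's tests where 0.506% of all tests were called lower by edgeR and 0.973% in either direction. DESeq2 called 9. The directions and background shares of the DESeq2 calls in this list are not given here. The lowest adjusted p was that of Kcns3, a silent subunit that modifies Kv2 channels, in Pvalb-like interneurons: 46.3 ± 15.6 CPM in ctrl and 39.8 ± 10.7 in alcohol mice against 12.8 ± 7.71 in AD and 15.7 ± 2.33 in AD_alcohol mice (SD, n = 4). The difference was -1.56 (SE 0.27, adjusted p = 0.000262, edgeR). Kcnip3, which encodes a calcium-binding partner of Kv4 channels, was lower in the Rorb-led class (-0.69, adjusted p = 0.00278) and Kcnf1, another silent subunit, in L6 IT-like neurons (-0.85, adjusted p = 0.00338), both by edgeR. For vapor averaged over genotypes 2 were lower, Kcnh7 in Astro-like nuclei (-0.48, adjusted p = 0.027) and Kcnh4 in L2/3 IT-like neurons (-0.44, adjusted p = 0.0348) by edgeR. These are 0.476% of the list's tests, where 0.443% of all were called lower and 0.714% in either direction, and DESeq2 called 3. AD_alcohol against ctrl had 4 calls by edgeR (0.952%, where 0.65% of all tests were called lower and 1.1% in either direction) and 1 by DESeq2. Genotype without and under alcohol had 1 each by edgeR (0.238% of the list's tests, where 0.102% and 0.185% of all tests were called lower) and 0 by DESeq2. In either direction 0.18% and 0.376% of all tests were called by edgeR. The remaining comparisons had 0 by either tool, with 14 to 29 tests under 0.05 unadjusted (4.23 to 9.0% of all tests). In a list of 26 inward rectifier, two-pore and HCN genes (20 tested, 135 tests), the 1 call over all comparisons by edgeR was Kcnj10, the astrocytic Kir4.1 channel, lower in Astro-like nuclei of 3xTg-AD mice averaged over alcohol (-0.43, SE 0.12, adjusted p = 0.0483), while DESeq2 made 0. This is 0.741% of the list's tests in that comparison, where 0.506% of all tests were called lower and 0.973% in either direction. The Kcnj10 level was 115 ± 19.7 CPM in ctrl and 141 ± 22 in alcohol mice against 85.9 ± 16.1 in AD and 103 ± 9.5 in AD_alcohol mice (SD, n = 4).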

How the data were processed

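Single-nucleus RNA-Seq libraries of 16 mouse prefrontal cortices (10x Chromium 3′ v3.1, 1 per mouse) were processed by the authors with Cell Ranger 6.1.1 and STAR on mm10. The deposited values are raw UMI counts per gene and nucleus, not normalized. Whether intron reads were counted and the limits of any filter on nuclei are not given in the sources used here, and the table holds more nuclei than the study's text counts. No column belonged to another sample (0 unused). Groups and mouse numbers came from the labels.

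Nuclei were normalized to 10000 counts, reduced to 2000 variable genes (channel genes left out) and 30 components, and clustered with scanpy 1.11.5 (Leiden, resolution 1.5). A cluster was named "X-like" where at least 3 of its class's markers were raised 1.5-fold and led the cluster. Clusters that failed were left unnamed, except the Rorb-led one, which was described after its genes were seen. Doublets were scored by scrublet (threshold 0.25). Counts were summed per mouse and class (at least 10 nuclei) and tested with edgeR 4.0.16 (quasi-likelihood, TMM, 4 group means in 1 fit) in R 4.3.3, over classes with 3 or more such mice in each group. Adjusted p-values are Benjamini-Hochberg over all genes tested in a class. The intervals use the t distribution with the fit's degrees of freedom. Alternatives were DESeq2 1.42.0, its size factors in edgeR, no filter on low counts, leaving out each mouse, leaving out the 3 mice with the most Gm42418, Gm42418 as a covariate, a stricter filter on nuclei (500 genes, at most 5% mitochondrial), no marked doublets, classes from marker counts and, added after the data were seen, broad sums without unnamed clusters. The glutamatergic and GABAergic sums and neighbouring classes were compared by two-sided exact sign-flip permutation over mice (scipy 1.17.1), adjusted over all genes reaching 3 CPM and over the 152 pairs. p-values measure the spread between mice. The edgeR fit was tested on simulated glutamatergic sums alone, with known changes in the alcohol group. The GABAergic sum and single classes were not simulated.

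The 8 genes and all lists were chosen with earlier results of these data known. Beyond the 8, the text names the 3 genes nearest in class pattern to each (1 of those of Kcnmb4 is not reported here) and up to 3 called genes per list and comparison with the lowest adjusted p, besides markers used as checks. Filter codons were read from GENCODE M21 transcripts. Protein sequences were not used here.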

Additional observations from a re-analysis of the deposited data

Results flagged for a closer look

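Of 100 sets of 4 mice (1 gene in 1 sum of nuclei and 1 group), 5 held a mouse whose gap to the nearest of the others was a larger part of the group's range than Dixon's critical value, where chance flags about 1 in 20 such sets. Kcnmb4 over all nuclei was highest in alcohol mouse 6, at 85.29 CPM against 67.89 to 70.7 in the other alcohol mice. Kcnn1 over all nuclei was lowest in AD mouse 12, at 4.03 CPM against 4.97 to 5.04. Kcnj6 in the glutamatergic sum was lowest in alcohol mouse 7, at 97.06 CPM against 113.09 to 116.39, and in AD mouse 14, at 100.05 against 121.52 to 125.33. Kcnj9 over all nuclei was highest in AD mouse 14, at 179.33 CPM against 153.11 to 157.17. AD mouse 12 was among the 3 libraries high in Gm42418, while the others were not.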

How the results depend on the processing

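No paired analysis was possible because mouse numbers in the labels are not shared between groups. Over the 8 comparisons, 8 alternative settings and 16 fits that each left out 1 mouse, no result followed through these settings reversed. With Gm42418 as a covariate, the count of channel tests called became 1 for vapor in 3xTg-AD mice (Kcnmb4 in L2/3 IT-like neurons, -0.49), 2 for vapor averaged over genotypes (Kcnmb4, -0.38, and Kcnj6, 0.36, in L2/3 IT-like neurons) and 1 for genotype averaged over alcohol (Kcnj3 in L2/3 IT-like neurons, -0.33), against 0 in each otherwise. For AD_alcohol against ctrl it stayed 1 but was Kcnj6 in L2/3 IT-like neurons (0.61). That count became 0 with classes from marker counts and ran from 0 to 1 without single mice (0 without ctrl mouse 28 or AD_alcohol mouse 4, 31 or 33; without ctrl mouse 36 the 1 call was Kcnj6 in Micro-PVM-like nuclei, -1.70). Kcnj9 in Pvalb-like interneurons ran from -0.80 to -0.65 without single mice. Kcnj9 in the GABAergic sum ran from -0.83 to -0.69 for AD_alcohol against ctrl and from -0.50 to -0.40 for genotype averaged over alcohol, called in all 16 fits; the second became -0.37 (edgeR adjusted p = 0.0877) with classes from marker counts. Averaged over genotypes, vapor passed for this sum without alcohol mouse 6 (-0.37, edgeR adjusted p = 0.0364). The glutamatergic minus GABAergic difference became 0.088 for Kcnn1 with classes from marker counts (exact p = 0.438) and -0.058 for Kcnj3 on the thinned share (exact p = 0.369), and no other gene lost its call. The causes of these changes were not tested.

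Depth limits Kcnn1, which passed the filter in no class, and Kcnn3, which passed in 7 of 18. With 4 mice a group, differences such as -0.48 in the GABAergic sum missed the threshold. Of the unnamed nuclei (39.4%), 40423 enter only the all-nuclei sum, 2452 also the GABAergic and 2235 also the glutamatergic sum. Leaving them out of both sums, chosen after seeing the data, changed no call. The thinned share left out 35970 nuclei under 1000 UMIs. The 3 libraries high in Gm42418 are 2 of the 4 ctrl mice and 1 of the 4 AD mice. Gm42418 was also lower in every AD_alcohol mouse than in every AD and ctrl mouse. Results with it as a covariate therefore depend on a value tied to the groups.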
